A study of Mus musculus with 15 samples.

Results

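The genes described here encode the machinery that copies DNA and divides the cell. They were chosen by name, from a list of 40 genes, out of 22350 mouse protein-coding genes on the 19 autosomes and X: 25 act in DNA replication and the supply of its building blocks, and 15 act in mitosis or its checkpoint. The rule uses no measured value. The question asked of them was which of these genes carried an active promoter mark in thymocytes, and whether cohesin and CTCF lay at those promoters and in the gene bodies.

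The data are ChIP-seq peak lists of primary thymus cells from wild type C57BL/6 mice, labelled as CD69-negative and positive for both CD4 and CD8. Double-positive cells of this kind are immature T cells, and lack of CD69 marks those that have not yet received a selection signal. Of the 15 samples of the series, 5 were used: 2 Rad21 libraries, 2 H3K27ac libraries and 1 CTCF library. The other 8 Hi-C and 2 input samples were not analysed here, and the labels give neither the age of the mice nor whether the replicates are different mice. Differences between replicate lists may therefore be technical.

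Rad21 is a subunit of cohesin, the ring that extrudes chromatin loops and holds sister chromatids together. CTCF binds a long DNA motif and can stop cohesin there. H3K27ac is an acetylated histone found at active promoters and enhancers. The depth behind each list is unknown, as no read numbers come with the peaks. After entries with the same coordinates were merged, the lists held 38700 and 24765 H3K27ac peaks, 38430 and 48462 Rad21 peaks and 35345 CTCF peaks. Each peak has a fold enrichment over local background, which is the value of the authors' peak caller and is compared only within a list. A region was called shared when it held overlapping peaks of both replicates, which gave 16230 H3K27ac and 30959 Rad21 regions. The promoter of a gene was taken as 2000 bp on either side of any of its annotated transcription start sites (TSSs), on genome build mm9. The labelled cell type was checked on marker genes: all 10 double-positive thymocyte genes, among them Cd4, Cd8a and Rag1, had shared promoter H3K27ac, against 0 of 5 myeloid and 0 of 5 thymic epithelial genes. For genes of mature thymocytes the count was 3 of 4.

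Replication starts when the origin recognition complex, Cdc6 and Cdt1 load the ring of Mcm2 to Mcm7 onto DNA. Cdc45 then joins the ring to make the active helicase, replication factor C loads the sliding clamp Pcna, and DNA polymerases alpha, delta and epsilon copy the strands. Many of these genes are known targets of E2F factors at the start of S phase. The genes of mitosis are transcribed later, in G2, through CCAAT boxes and a short element called the cell cycle homology region. Most CD69-negative double-positive thymocytes are resting cells that arise from a burst of division at the preceding stage.

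H3K27ac was present at most of the promoters. Of the 40 genes, 33 had a shared promoter H3K27ac region, against 41.4% of 22310 other protein-coding genes. The count was 22 of 25 for replication and 11 of 15 for mitosis. With replicate 1 or replicate 2 alone it was 37 or 34 of 40. With a −log10 q of at least 5 required in every list, 3 of the 40 genes (7.50%) and 1153 other genes (5.17%) kept the mark, so the gap was seen mainly with weaker H3K27ac peaks included. All 6 genes of the Mcm2 to Mcm7 ring and all 5 subunits of replication factor C were among the 33.

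The 7 genes with no shared promoter region had different patterns. Cdc6, which helps to load the Mcm ring, Prim1, the catalytic subunit of primase, and Aurkb, the kinase of the chromosomal passenger complex, had no promoter H3K27ac peak in either list. Pold1, the catalytic subunit of polymerase delta, has 12 annotated TSSs, and its promoter windows held peaks of both lists that did not overlap. The highest had folds of 6.28 in replicate 1 and 1.74 in replicate 2. They lay 13414 to 13854 bp and 5200 to 6605 bp downstream of the 5′ end, so not at the same promoter. Within 2000 bp of the 5′ end only replicate 1 had a peak, with a fold of 5.49. The mitotic cyclins Ccnb1 and Ccnb2 and the checkpoint kinase Bub1 had a promoter peak in replicate 1 only, with folds of 1.52, 2.17 and 2.15. Thus both B-type cyclins and Bub1 lacked the mark in the shorter H3K27ac list.

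Across the 33 genes, the highest promoter H3K27ac fold ran from 1.50 at Tyms, the thymidylate synthase gene, to 14.1 at Birc5, the survivin gene, in replicate 1. In replicate 2 it ran from 1.67 at the checkpoint gene Mad2l1 to 11.9 at Pola1, the catalytic subunit of polymerase alpha. The order of the genes was not the same in the lists: Pola1 had 1.88 in replicate 1 and Bub1b 1.87, beside 11.9 and 11.1 in replicate 2. The width of shared H3K27ac at the promoter had a median of 1986 bp, from 369 bp at Rfc2 to 6947 bp at Orc1, against 1726 bp for the 9235 other genes with the mark. The median was 1820 bp for the 22 replication genes and 2948 bp for the 11 mitosis genes. Without H3K27ac replicate 1 the medians were 1201 bp for the listed genes and 1105 bp for the others. With a −log10 q of at least 5 in every list they were 1639 bp over 3 genes and 1913 bp, with the listed genes the narrower.

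**Figure D1:**
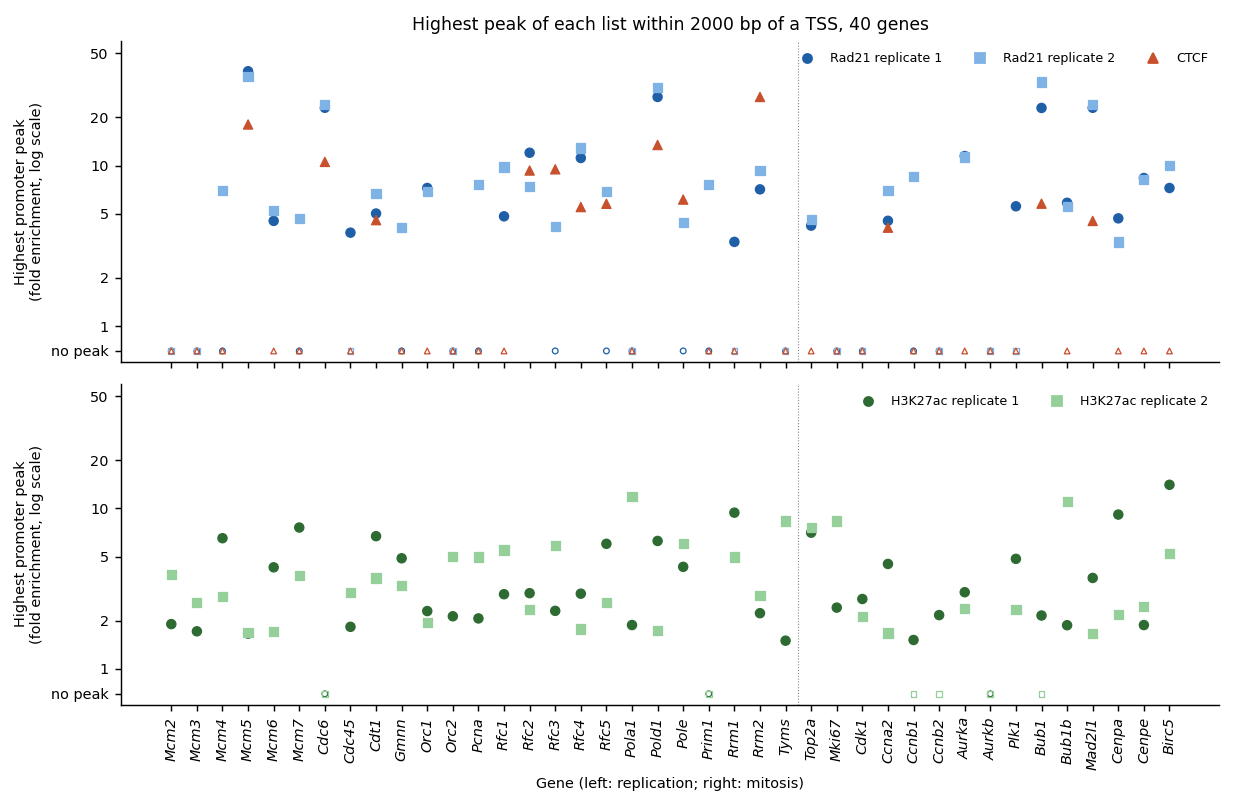
Highest peak within 2000 bp of a TSS for each of the 40 genes, as fold enrichment on a log axis, for Rad21 and CTCF (top) and H3K27ac (bottom), with replication genes on the left and mitosis genes on the right of the dotted line. Filled points are peaks and small open points on the lowest level mark lists with no peak; Rad21 is above 20 in both lists at Mcm5, Cdc6, Pold1, Bub1 and Mad2l1.

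Cohesin was found at fewer of these promoters than at other promoters with H3K27ac. Of the 33 genes with the mark, 12 had a shared Rad21 region at the promoter (36.4%), against 61.1% of the 9235 other genes with the mark, a difference of -24.8 percentage points. In single lists the gap was smaller. Replicate 1 alone placed Rad21 at 19 of 33 promoters (57.6%), against 69.7%. Replicate 2 alone placed it at 23 of 33 (69.7%), against 83.3%. The corresponding differences were -12.1 and -13.6 points. They come from single lists and do not measure the spread of the shared difference. With H3K27ac replicate 1 or replicate 2 left out, the shared difference was -21.8 or -21.1 points. No test was made, since the genes form a chosen list. When Rad21 and CTCF peaks with a −log10 q under 5 were left out, shared Rad21 was at 11 of 33 (33.3%), against 43.6%, a difference of -10.3 points.

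Part of the low shared count came from promoters with peaks that the replicates did not share. Among the 33 genes, 10 had promoter Rad21 in 1 list only, against 22.7% of other genes with H3K27ac, and 7 had none in either list, against 12.2%. Peaks of both lists, overlapping or not, were at 16, against 65.1%. When a peak of either list sufficed, 26 of 33 had promoter Rad21 (78.8%) against 87.8%, a difference of -9.05 points. Whether these promoters held less cohesin or were less often called cannot be told apart from peak lists.

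**Figure D2:**
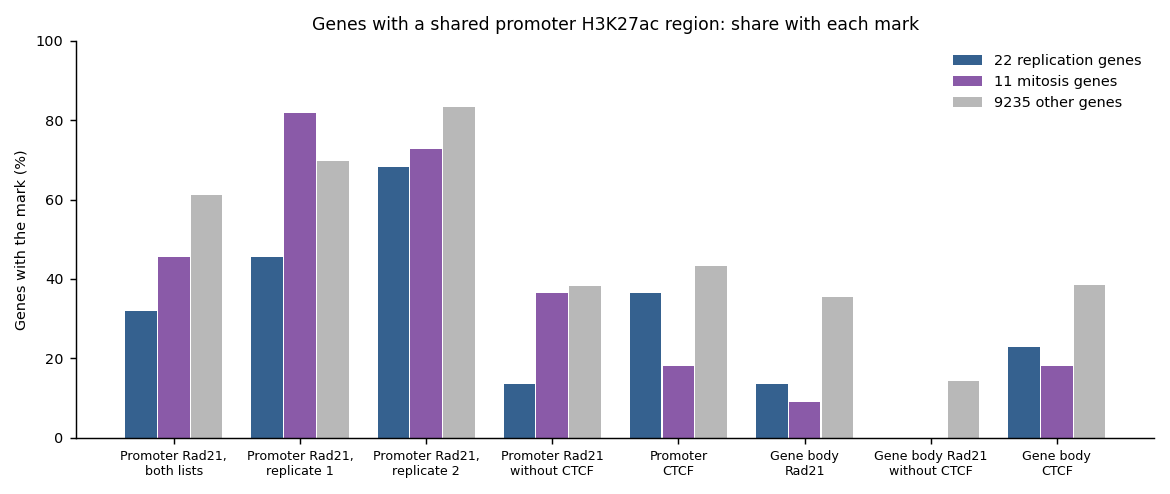
Share of genes (%) with each mark among genes with shared promoter H3K27ac: 22 replication genes, 11 mitosis genes and 9235 other genes. Promoter Rad21 of both lists was at 31.8% of the replication and 45.5% of the mitosis genes against 61.1% of the other genes; bars are counts of genes and carry no error.

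The count of shared promoter Rad21 in other genes of these pathways lay near the background. Of 66 further genes of replication and mitosis, 56 had promoter H3K27ac, and 33 of these had shared promoter Rad21 (58.9%). By pathway the count was 20 of 32 replication genes (62.5%) and 13 of 24 mitosis genes (54.2%). The low share of shared Rad21 was thus not seen in these further genes. Replicate 1 alone placed promoter Rad21 at 34 of the 56, which was below the 69.7% of other genes with the mark. Replicate 2 alone placed it at 49 of the 56, against 83.3%. Tk1, the thymidine kinase gene, had the highest ranked promoter Rad21 of the further genes, with folds of 64.9 and 58.8 in replicates 1 and 2. Pola2, the second subunit of polymerase alpha, followed with 43.5 and 42.2, and Kif23, a kinesin of the spindle midzone, with 31.8 and 39.4. Of the 10 further genes without shared promoter H3K27ac, the first 8 in list order were Gins3, Mcm10, Pole3, Clspn, Spc25, Nek2, Cenpf and Cdc25c.

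The genes that load the helicase differed among themselves. In the Mcm ring, Mcm5 was the only gene with shared promoter Rad21, and its region had folds of 38.7 and 36.0, the best rank of the 40 genes. It lay at chr8:77632434-77632761, 829 bp upstream of the nearest TSS by its middle, and overlapped a CTCF peak with a fold of 18.0. Mcm6 had peaks of both lists that did not overlap, with folds of 4.53 and 5.27. Mcm4 and Mcm7 had a peak in replicate 2 only, with folds of 7.03 and 4.68, and Mcm2 and Mcm3 had no promoter Rad21 peak. All 6 genes of the ring had shared H3K27ac, but not at the same strength. The folds in replicate 1 ran from 1.66 at Mcm5 to 7.61 at Mcm7. At Mcm5 the −log10 q was only 0.711 in replicate 1 and 0.25 in replicate 2.

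Cdc6 had strong cohesin with no H3K27ac. Its main promoter region at chr11:98770966-98771330 had Rad21 folds of 22.9 and 24.0 and a CTCF fold of 10.5. A weaker Rad21 region without CTCF had folds of 4.72 and 5.35. It lay inside the gene, 10531 to 10769 bp downstream of the 5′ end in replicate 2. Among the 4 annotated TSSs, the nearest is internal, and the middle of the region was 2015 bp upstream of it. The region thus reached only the edge of the window of that internal TSS. Cdt1, the partner of Cdc6 in loading, had a CTCF-free Rad21 region over its TSS, with folds of 5.03 and 6.69. Its CTCF peak, with a fold of 4.57, lay 948 bp downstream of that TSS. Gmnn encodes geminin, the inhibitor of Cdt1, and had Rad21 in replicate 2 only, with a fold of 4.10. Orc1 had a CTCF-free region with folds of 7.25 and 6.90, and Orc2 had no promoter Rad21 peak. Cdc45 had a peak in replicate 1 only, with a fold of 3.82.

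Among the genes of the clamp, its loader and the polymerases, cohesin went mostly with CTCF. Rfc4 had Rad21 folds of 11.2 and 12.9 on a CTCF peak of 5.52, and Rfc2 had folds of 12.0 and 7.45 on a CTCF peak of 9.32. Rfc1, the large subunit, had a CTCF-free region with folds of 4.83 and 9.79. Rfc3 and Rfc5 had CTCF peaks, with folds of 9.48 and 5.78, but Rad21 in replicate 2 only, with folds of 4.16 and 6.90. Thus 4 of the 5 loader genes had promoter CTCF, and 3 of 5 had shared Rad21. The clamp gene Pcna itself had Rad21 in replicate 2 only, with a fold of 7.61, and no CTCF.

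Pold1 had the second best rank of the replication genes, with Rad21 folds of 26.8 and 30.7 at chr7:51804208-51804501 and a CTCF fold of 13.4. Pole, the catalytic subunit of polymerase epsilon, had CTCF with a fold of 6.15 and Rad21 in replicate 2 only, with a fold of 4.42. Prim1 had Rad21 in replicate 2 only, with a fold of 7.61, and Pola1 had none. In the supply of deoxynucleotides, Rrm2, the regulated subunit of ribonucleotide reductase, had a promoter region with Rad21 folds of 7.11 and 5.31 and another with 6.23 and 9.37, and both overlapped CTCF. Rrm1, the large subunit, had a peak of 3.35 in replicate 1 only, and Tyms had no promoter Rad21.

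Among the mitosis genes, most of the promoters with shared cohesin had a region without CTCF. Of the 11 with promoter H3K27ac, 5 had shared Rad21, and at 4 of these it was CTCF-free. Replicate 1 alone placed Rad21 at 9 of the 11, against 69.7% of other genes with the mark, so that list showed no deficit. Replicate 2 alone placed it at 8 of the 11, against 83.3%. Aurka, the kinase of centrosomes and spindle poles, had 2 CTCF-free regions, the stronger with folds of 11.5 and 11.3. Birc5 followed with 7.25 and 10.0, and Cenpe, a kinesin of the kinetochore, with 8.37 and 8.20. Bub1b, the checkpoint protein BubR1, had 5.87 and 5.58 over its TSS. Of the 22 replication genes with the mark, 3 had CTCF-free shared Rad21: Cdt1, Orc1 and Rfc1. That is 3 of the 7 with shared Rad21, and no difference between the groups can be read from such counts. Together this was 7 of 33 (21.2%), against 38.1% of other genes with promoter H3K27ac. It was 16 (48.5% against 67.8%) without Rad21 replicate 1 and 13 (39.4% against 49.7%) without Rad21 replicate 2. When Rad21 and CTCF peaks with a −log10 q under 5 were left out it was 8 (24.2%), near the 27.01% of the other genes.

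The strongest promoter cohesin among the mitosis genes lay with CTCF at checkpoint genes. Bub1 had Rad21 folds of 22.9 and 33.2 at chr2:127658596-127658859 and a CTCF fold of 5.79, 1105 bp upstream of the nearest TSS by its summit. Mad2l1 had folds of 22.9 and 24.0 at chr6:66483293-66483587 and a CTCF fold of 4.52. That region lay 1944 bp upstream of the nearest TSS, at the edge of the promoter window. The 4 mitosis genes with no promoter Rad21 peak were Mki67, the gene of the proliferation antigen Ki-67, the mitotic kinase gene Cdk1, Ccnb2 and Aurkb. Ccnb1 had a peak in replicate 2 only, with a fold of 8.59, and the polo-like kinase gene Plk1 a peak in replicate 1 only, with a fold of 5.58. Top2a, Ccna2 and Cenpa had peaks of both lists that did not overlap, with folds of 4.23 and 4.62, 4.53 and 7.03, and 4.69 and 3.34.

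**Figure D3:**
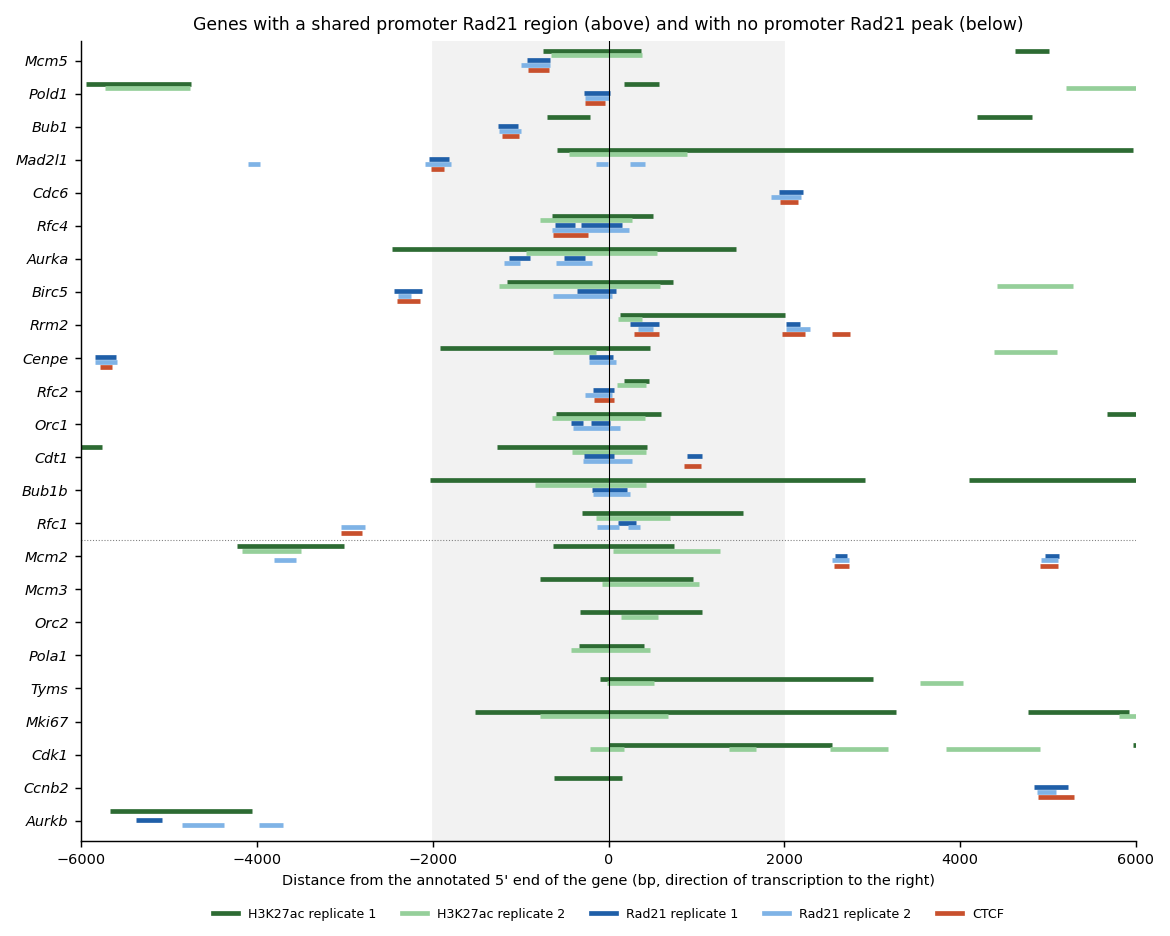
Peaks of the 5 lists around the annotated 5′ end of each gene, as distance in bp with transcription to the right; the 15 genes above the dotted line have a shared promoter Rad21 region, in order of rank, and the 9 genes below it have no promoter Rad21 peak. The grey band marks 2000 bp on either side of the 5′ end, and 7 of the 9 lower genes have H3K27ac of both lists in it, Ccnb2 of replicate 1 only and Aurkb of neither.

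CTCF lay at 10 of the 33 promoters with H3K27ac (30.3%), against 43.3% of other genes with the mark, a difference of -13.0 points. With the 5′ end as the only TSS of each gene the shares were 30.3% and 36.3%, a difference of -5.97 points. CTCF was at 8 of the 22 replication genes and at 2 of the 11 mitosis genes, Ccna2 and Mad2l1. The gap was also smaller without weak CTCF peaks. None of the 13 CTCF peaks at these promoters had a q above 0.05, against 25.6% of 4821 at other promoters with H3K27ac, and with such peaks left out the shares were 30.3% and 34.5%, a difference of -4.19 points. Both CTCF and shared Rad21 were found at 6 of the 33 promoters, against 36.2%. Of the 13 peaks, 6 lay on shared Rad21 (46.2%), against 72.6% of the peaks at other promoters. The core CTCF motif, with at most 2 mismatches to its 13 letters, was within 50 bp of 10 of the 13 summits (76.9%), against 60.6% at other promoters and 7.69% at windows 1000 bp downstream of the 13. There is 1 CTCF library, so these values have no spread between replicates.

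The genes with the strongest promoter CTCF peaks were Rrm2, Mcm5 and Pold1, and the summits are shown for that reason. These promoters also held shared cohesin. Each line gives 61 bases of the mm9 plus strand centred on the CTCF summit, with the best core motif match in capitals.
Rrm2, chr12:25393517-25393577, CTCF fold 26.8: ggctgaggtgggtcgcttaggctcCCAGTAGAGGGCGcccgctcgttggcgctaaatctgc
Mcm5, chr8:77632600-77632660, CTCF fold 18.0: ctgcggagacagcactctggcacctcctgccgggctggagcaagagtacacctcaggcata
Pold1, chr7:51804351-51804411, CTCF fold 13.4: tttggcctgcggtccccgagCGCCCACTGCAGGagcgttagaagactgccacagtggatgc
The Rrm2 summit lies in an intron of Rrm2, 70 bp upstream of the nearest TSS, and its core has 0 mismatches on the plus strand. The Pold1 summit lies outside annotated transcripts, 162 bp upstream of the nearest TSS, and its core has 2 mismatches on the minus strand. The Mcm5 summit, outside annotated transcripts and 797 bp upstream of the nearest TSS, has no core match within 2 mismatches, so no letter is in capitals. The Rrm2 peak, with the highest promoter CTCF fold of the 40 genes, lay on Rad21 folds of 7.11 and 5.31, below the list medians of 7.74 and 7.61. Mcm5, with the highest promoter Rad21 folds, had no such core match.

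The share of promoters with Rad21 was also set out by the width of H3K27ac and by the size of the promoter window. Among other genes, shared Rad21 went over the 4 width classes from 47.0% at up to 1125 bp, through 53.2% and 63.0%, to 81.4% above 2904 bp. In the same classes the replication and mitosis genes had 1 of 4, 3 of 7, 4 of 12 and 4 of 10. Their share was below that of other genes in each class, and the gap was widest above 2904 bp, where 4 of 10 stood against 81.4%. Those 10 genes were Aurka, Bub1b, Cdk1, Cenpa, Gmnn, Mad2l1, Mki67, Orc1, Pcna and Tyms. The width classes are quartiles of the other genes, and counts of 4 to 12 genes give a coarse share. The median promoter window was 7145 bp for the 33 genes and 5747 bp for the other genes. With windows up to 4001 bp, up to 8000 bp and above, shared Rad21 was at 56.3%, 57.1% and 66.6% of other genes. The listed genes had 3 of 8, 4 of 10 and 5 of 15, with no rise. Whether window size affects the share was not tested.

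**Figure D4:**
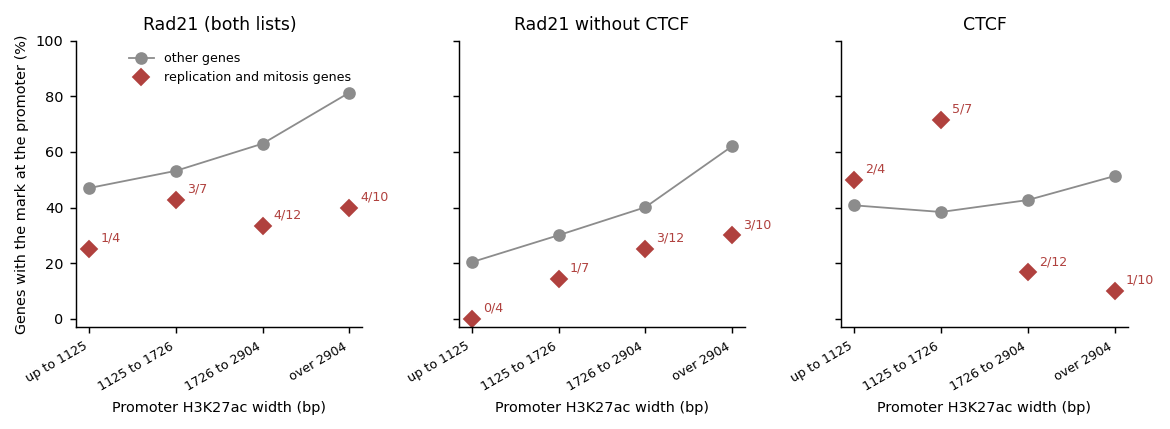
Share of genes (%) with shared Rad21, Rad21 without CTCF and CTCF at the promoter, by the total width of shared promoter H3K27ac in bp. Grey circles are the 9235 other genes and red diamonds the 33 replication and mitosis genes, with their counts; for shared Rad21 the diamonds lie below the circles in all 4 classes.

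Gene bodies held little cohesin in the listed genes with promoter H3K27ac. Outside the promoter windows, shared Rad21 was found in 4 of the 33 genes with H3K27ac, against 35.4% of other genes with the mark. With replicate 1 or 2 alone it was found in 5 or 6, against 38.1% or 42.1%. CTCF-free shared Rad21 was in 0 of the 33, against 14.3%, CTCF in 7, against 38.4%, and shared H3K27ac in 6, against 20.2%, so that of these marks H3K27ac came closest to the background. The 33 genes are short, with a median length of 15416 bp against 22790 bp. Per length, their bodies held 6 regions in 839.524 kb, or 0.715 per 100 kb, against 2.05 per 100 kb in other genes with the mark. Pola1 alone made up 321.347 kb of this with 0 regions, and without it the density was 1.16 per 100 kb. None of the 6 was CTCF-free, against 0.743 CTCF-free regions per 100 kb. Within classes of gene length the counts were 0 of 9 at up to 9745 bp, 1 of 12 at up to 22790 bp, 2 of 8 at up to 50522 bp and 1 of 4 above, beside 7.10%, 23.8%, 40.6% and 70.0% of the other genes. In 53 further pathway genes with a body and promoter H3K27ac, the density was 2.47 regions per 100 kb. Of these 38 regions, 16 lay in Mad1l1, a checkpoint gene, and without it the density was 1.77. The listed genes without shared promoter H3K27ac went the other way. Bodies of 6 such genes held 3 regions in 49.322 kb, or 6.08 per 100 kb. Other genes without the mark had 0.650 per 100 kb. These 3 regions lay in Ccnb2 and Cdc6.

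The body of Bub1b held the highest Rad21 folds found in the promoters and bodies of the 40 genes. Its region at chr2:118463774-118464314 had folds of 64.5 and 45.9, and that at chr2:118431778-118432153 had folds of 55.5 and 50.1. Mcm2, with no promoter Rad21, had 2 regions in its body, with folds of 3.60 and 11.1 and of 5.54 and 10.7. Ccnb2 also had none at its promoter and 2 in its body, with folds of 14.5 and 8.03 and of 13.9 and 14.1. Cdc6 had 1 body region with folds of 35.8 and 21.5, and Cdc45 and Rfc1 had 1 each, with folds of 6.64 and 9.41 and of 12.8 and 9.37. All 9 of these body regions overlapped a CTCF peak.

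From the 33 promoters, the nearest shared Rad21 region lay at a median of 11086 bp from the closest TSS, against 252 bp for other genes with H3K27ac and 777.5 bp for the 56 further pathway genes. Whether a median lies within or beyond 2000 bp follows from the promoter counts above, so this contrast is not a separate result. Among genes with no promoter Rad21 peak the distance ranged from 2544 bp at Mcm2 to 161089 bp at Pola1, and it reached 201118 bp at Mcm4. Some windows hold a start site of another gene, so a peak there cannot be given to either gene alone. Divergent pairs were Mcm4 with Prkdc, Mcm7 with Ap4m1, Cdc45 with Ufd1l, Orc1 with Prpf38a, Pole with Pxmp2 and Aurka with Cstf1, at 87 to 466 bp. With such genes left out, shared Rad21 was at 10 of 27 promoters (37.0%), against 61.7%.

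The promoters of replication and mitosis genes held different motif letters. Promoters of 300 bases, 250 upstream and 50 downstream of a RefSeq start site on GRCm38.p6, were found for 34 of the 40 genes and located in mm9 by exact match. They were searched on both strands for E2F letters (TTTCCCGC, TTTGGCGC, TTTCGCGC or TTCCCGCC, some of which can overlap each other), for CCAAT, and for the cell cycle homology region as TTTGAA or TTCGAA. An E2F match was in 13 of 21 replication promoters (61.9%) and in 1 of 13 mitosis promoters, that of Cdk1, against 4.61% of 17492 protein-coding promoters. A homology region match was in 9 of 13 mitosis promoters (69.2%) and 4 of 21 replication promoters, against 18.2%. All 9 and all 4 also had CCAAT, which was in 11 of 13 and 15 of 21, against 39.0%. These matches describe letters and not bound sites. The motifs were taken from what is known of these genes, so the split is a description of the list.

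**Figure D5:**
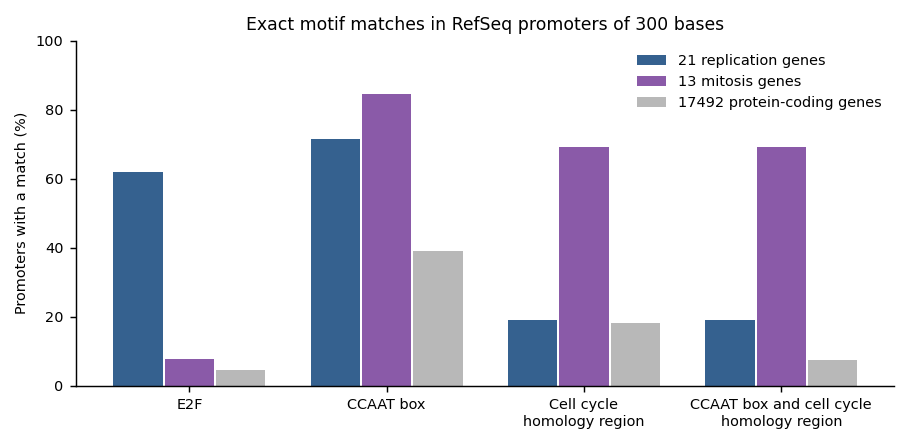
Share of RefSeq promoters of 300 bases (%) with an exact match to each motif on either strand: 21 replication genes, 13 mitosis genes and 17492 protein-coding genes. E2F letters were in 61.9% of replication promoters and the cell cycle homology region in 69.2% of mitosis promoters.

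The sequences below show these letters at the 2 best ranked genes by Rad21 in each group, and at Mcm6, Top2a and Cdk1, which were chosen after their values were seen because they hold several matches. Each is the RefSeq promoter upstream of its start site and outside the annotated gene, 5′ to 3′ on the gene's strand, with matches in capitals.
Mcm5, chr8:77633158-77633407, plus strand: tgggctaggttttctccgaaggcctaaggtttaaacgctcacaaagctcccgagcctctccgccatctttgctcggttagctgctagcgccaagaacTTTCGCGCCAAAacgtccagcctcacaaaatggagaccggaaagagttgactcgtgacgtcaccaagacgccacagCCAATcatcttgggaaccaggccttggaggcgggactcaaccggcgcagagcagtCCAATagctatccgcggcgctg
Pold1, chr7:51804220-51804435, minus strand: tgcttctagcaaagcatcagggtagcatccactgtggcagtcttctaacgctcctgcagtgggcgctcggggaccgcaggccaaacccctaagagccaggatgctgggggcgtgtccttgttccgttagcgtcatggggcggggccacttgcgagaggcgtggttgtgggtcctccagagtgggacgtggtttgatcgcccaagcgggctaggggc
Mcm6, chr1:130256283-130256532, minus strand: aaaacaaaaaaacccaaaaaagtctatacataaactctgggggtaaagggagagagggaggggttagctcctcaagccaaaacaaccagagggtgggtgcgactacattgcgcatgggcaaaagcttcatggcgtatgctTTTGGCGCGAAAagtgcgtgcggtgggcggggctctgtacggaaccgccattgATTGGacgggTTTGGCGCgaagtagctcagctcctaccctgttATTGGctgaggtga
Bub1, chr2:127657602-127657845, minus strand: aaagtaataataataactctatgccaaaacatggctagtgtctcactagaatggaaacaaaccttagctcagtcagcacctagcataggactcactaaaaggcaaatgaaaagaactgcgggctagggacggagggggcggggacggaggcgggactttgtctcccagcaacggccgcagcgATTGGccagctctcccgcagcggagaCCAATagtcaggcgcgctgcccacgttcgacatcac
Mad2l1, chr6:66484965-66485214, plus strand: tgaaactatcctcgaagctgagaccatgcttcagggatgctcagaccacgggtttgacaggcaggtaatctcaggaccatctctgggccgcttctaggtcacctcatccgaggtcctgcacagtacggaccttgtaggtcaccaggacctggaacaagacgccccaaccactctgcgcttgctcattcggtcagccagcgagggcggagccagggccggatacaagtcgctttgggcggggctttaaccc
Top2a, chr11:98885504-98885753, minus strand: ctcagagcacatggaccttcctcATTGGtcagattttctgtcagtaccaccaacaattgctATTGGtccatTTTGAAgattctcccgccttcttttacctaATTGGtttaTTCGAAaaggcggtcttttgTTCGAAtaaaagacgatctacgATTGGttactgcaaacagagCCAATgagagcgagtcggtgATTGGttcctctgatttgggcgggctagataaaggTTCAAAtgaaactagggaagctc
Cdk1, chr10:68815687-68815910, minus strand: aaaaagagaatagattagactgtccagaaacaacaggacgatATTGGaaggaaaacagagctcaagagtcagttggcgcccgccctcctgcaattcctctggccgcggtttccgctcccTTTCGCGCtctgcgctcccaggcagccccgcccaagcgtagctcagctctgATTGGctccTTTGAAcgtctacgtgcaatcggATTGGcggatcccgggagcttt
In Mcm5 and Mcm6, matches on opposite strands overlap to give 1 longer run of capitals. The Pold1 promoter has 2 E2F matches, all of them outside the stretch shown. The Mad2l1 promoter has no match to any of the 3 motifs in its 300 bases. Top2a has 6 CCAAT and 4 homology region matches, and Cdk1 has 3 CCAAT, 2 homology region and 1 E2F match. The 4 genes shown for their Rad21 rank had different letters. Mcm5 had E2F and CCAAT, Pold1 had E2F only, and Mad2l1 had none of the 3. Bub1 had CCAAT and, outside the stretch shown, 1 homology region match. The shared promoter Rad21 region overlapped the stretch shown at Pold1, but not at Mcm5, Bub1 or Mad2l1. In the further pathway genes, E2F letters were in 8 of 30 replication promoters and the homology region in 17 of 24 mitosis promoters. CCAAT was in 18 of the 24 and in 12 of the 30, the latter near the 39.0% of all promoters.

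The genes of factors that act on these motifs nearly all had promoter H3K27ac themselves. Of 22 genes of E2F, Rb and DREAM complex proteins, of Mybl2 and Foxm1 and of the CCAAT binding factor, 21 had shared promoter H3K27ac, and only E2f7 did not. Shared Rad21 was at 10 of the 21 (47.6%), against 61.1% of other genes with promoter H3K27ac. In single lists the counts lay near the background. Replicate 1 alone placed promoter Rad21 at 14 of the 21, against 69.7%, and replicate 2 alone at 17, against 83.3%. No shared region lay at Foxm1 or Mybl2, activators of mitosis genes, while there was a region at E2f2 with folds of 15.1 and 16.4 and at Rb1 with folds of 12.8 and 16.9.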

How the data were processed

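ChIP-seq peak lists of CTCF (1 library), Rad21 (2) and H3K27ac (2) were used, grouped by the labels. Per the submitters' processing notes the build is mm9 and MACS2 2.1.0 and Bowtie 1.0.0 are named for the series without a role; how peaks were thresholded, and against which control, is not given in the sources used here. The authors deposited for each peak a fold enrichment (a ratio to local background), −log10 p and −log10 q values, a score (not used) and, in narrow lists, a summit. The smallest −log10 q was 0 for CTCF, 1.31 and 1.32 for Rad21 and 0.188 and 0.00455 for H3K27ac. The depth of these libraries, and the precision it would give, cannot be read from peaks.

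All peaks of the autosomes and X were joined to GENCODE vM1 protein-coding genes on NCBIM37, the assembly of mm9, with Python 3.11.15, numpy 2.4.6 and pandas 2.3.3. An overlap needed 1 bp. A gene body was the annotated gene outside its promoter windows. Promoter widths are summed over shared regions. Counts are set beside those of other genes with promoter H3K27ac, with no test of the list. The scripts were tested on simulated data. The check on B cell marker genes is not reported here.

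The 40 genes, the other lists, the motifs and the alternatives were chosen with earlier results of these data known. Values were printed by rule for genes without shared promoter H3K27ac, the 5 replication and 5 mitosis genes with the best worse-of-replicates rank of Rad21 fold, up to 8 genes by CTCF fold and up to 6 by gene body Rad21. The others were added after their values were seen. Alternatives were 500 bp promoters, an overlap of 50% of the shorter peak, −log10 q of at least 5, CTCF q of at most 0.05, the 5′ end alone, no shared windows, autosomes and each replicate left out. Start sites of coding transcripts, Rad21 of either list and body density without each gene were added after seeing the data.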

Additional observations from a re-analysis of the deposited data

How the results depend on the processing

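Under all alternatives run, the share of promoters with Rad21 and with CTCF stayed lower in the replication and mitosis genes than in other genes. Of 113 recomputed values, 86 stayed within a set limit. The limit was 1.5 times the reported value for counts, and otherwise 1 SD between the replicates or, with 1 library, a binomial interval. None reversed, but only the Rad21 and CTCF differences, with 13 and 11 values, have a sign that could reverse. The others are counts and medians. The Rad21 difference was -24.8 points as reported, which was the widest of all settings. It moved beyond its limit under 10 of 13 alternatives. That limit comes from the values of single lists, which do not measure the spread of the shared difference, so this count is only a description. With each replicate of Rad21 or H3K27ac left out in turn the difference ranged from -21.8 to -12.1. It was -22.6 with an overlap of 50% of the shorter peak, -20.9 with the 5′ end as the only TSS, -23.0 with start sites of coding transcripts, -9.05 with Rad21 of either list and -10.3 with the Rad21 and CTCF lists limited to a −log10 q of 5. With each replicate left out, the count with promoter Rad21 ranged from 13 to 23 and that with CTCF-free Rad21 from 7 to 16, and with Rad21 of either list they were 26 and 19, with 7 genes having Rad21 in the body. The CTCF count fell from 10 to 6 with promoters of 500 bp and to 5 with the Rad21 and CTCF lists cut at a −log10 q of 5.

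With that threshold on every list, only 3 genes kept promoter H3K27ac, 1 of them with Rad21, 1 with CTCF-free Rad21, 0 with CTCF and 0 with Rad21 in the body, and the Rad21 difference was -13.1 points. The median H3K27ac width ranged from 1201 to 1887 bp with each H3K27ac replicate left out. The median Rad21 fold of replicate 1 ranged from 8.37 to 9.76 there, against 7.81, and that of replicate 2 was 7.82 with promoters of 500 bp, against 9.58. The cause of these shifts was not tested, except that fewer peaks or genes enter under the stricter settings. No paired analysis was possible because no result comes from a test. The single CTCF library, the unknown depth and H3K27ac lists with many weak peaks limit what these counts can show.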
